A study of Mus musculus with 5 samples.

Results

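The cells described here met a rule meant to find mouse spermatogonia that had begun to differentiate but carried little or no Stra8 RNA. Some that met it were rich in RNA of other cell types and are set apart below. The cells were chosen from droplet single-cell RNA libraries of whole testis by their measured RNA. A barcode, the tag shared by all RNA caught in 1 droplet, was taken at 144, 350.4, 556.8 or 763.2 h if it had at least 1000 UMIs (unique molecular identifiers, each standing for 1 captured RNA molecule), at least 500 genes and under 20% mitochondrial UMIs. It also needed UMIs of at least 3 of the 6 genes Kit, Dmrtb1, Rhox13, Prss50, Sohlh2 and Dnmt3b, at most 1 Stra8 UMI, and at most 1 UMI summed over the meiotic genes Meiob, Dmc1 and Rad51ap2. Barcodes with 3 or more of the 7 genes Gfra1, Id4, Ret, Zbtb16, Egr4, Upp1 and Sall4, which mark undifferentiated spermatogonia, were left out. The rule found 918 of 38292 barcodes in the 4 libraries, or 918 of the 31764 that passed the limits on content: 102, 467, 97 and 252 in time order.

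The mice had been brought to synchronized spermatogenesis and each time was placed by the submitters at a return of stages VIII to IX, steps of the cycle through which each stretch of tubule passes. The 0 h library is labelled a control, and the later ones are numbered as successive time points. The sources used here do not state strain, genotype, age, the agent used for synchronization or the number of mice in a library. The 5 libraries summed to between 75578147 and 118147393 UMIs. Pairs of libraries shared 11 to 37 barcode sequences and no pair shared a member. Each time had 1 library, so no difference below has a replicate check or a test. All intervals are 95% and cover counting error only. In the 0 h library the same rule found 19 barcodes, 0.241% of those that passed, and it enters no comparison.

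Undifferentiated spermatogonia hold the stem cells of the testis. Retinoic acid moves them into differentiation, when they begin to display Kit, the receptor for stem cell factor, and enter a fixed series of mitotic divisions as type A, intermediate and B spermatogonia. A later pulse of retinoic acid raises Stra8, which opens the way into meiosis as preleptotene spermatocytes. Stra8 also appears briefly at the earlier transition, so a cell with Kit and little Stra8 can lie on either side of that brief rise. Sohlh2 is a transcription factor that promotes Kit and differentiation, Dmrtb1 is a transcription factor that helps to end the mitotic programme before meiosis, and Dnmt3b is a DNA methyltransferase. Rhox13 is an X-linked homeobox gene of differentiating germ cells and Prss50 is a testis protease.

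Part of the barcodes that met the rule also carried the RNA of other cells. In 30 of them at least 0.5% of UMIs came from marker lists of 5 somatic kinds (Sertoli, Leydig, peritubular myoid, macrophage, stromal and vessel cells), and in 135 at least 0.3% came from 8 genes of pachytene spermatocytes such as Ldhc and Pgk2. These 163 barcodes were set apart, a limit chosen after the values were seen. They numbered 20, 27, 51 and 65 in time order and held 27.9%, 19.0%, 69.4% and 36.6% of the members' UMIs. At 350.4 h their median depth was 61174 UMIs. Whether a barcode set apart held a spermatogonium at all was not tested. The other 755 are called the kept members below: 82, 440, 46 and 187, with median depths of 15242.5, 17924.5, 14048 and 11769 UMIs. At 144 and 350.4 h few barcodes lay near the limits. Between 0.3% and 0.7% on the somatic lists there were 5 and 2, and between 0.2% and 0.4% on the pachytene list 0 and 5. At 144 h the kept barcode highest on the somatic lists had 0.444% and the lowest set apart had 0.681%, a narrow gap. At 556.8 and 763.2 h 24 and 72 barcodes lay between 0.2% and 0.4% on the pachytene list, so the limit there divided a continuous range. Scrublet doublet scores of 0.25 or more were found in 8, 27, 3 and 18 of all members and in 5, 26, 0 and 3 of the kept ones.

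**Figure D1:**
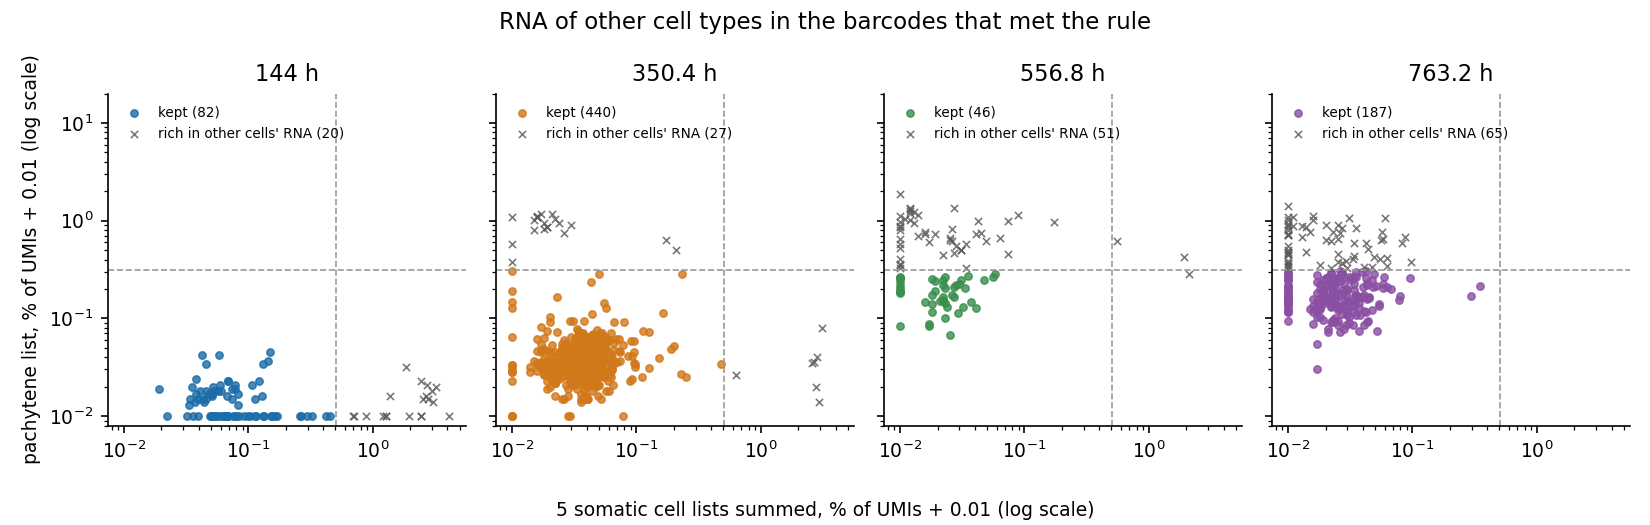
Each point is 1 barcode that met the rule, by library, with the share of its UMIs in the 5 somatic lists on the horizontal axis and in the pachytene list on the vertical axis, both as percent plus 0.01 on log scales. Dashed lines mark 0.5% and 0.3%; the 20, 27, 51 and 65 crosses lie beyond at least 1 line, and at 556.8 and 763.2 h no gap separates them from the kept barcodes.

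The kept members of the later libraries still contained RNA of later germ cells. The 8 spermatid genes, Prm1 and Tnp1 among them, made up 0.000311%, 0.0113%, 0.509% and 0.449% of their UMIs in time order. Prm1, a protamine that packs sperm DNA, had 0, 29.2, 1974 and 1570 CPM (counts per 1000000 summed UMIs). Undifferentiated barcodes of the 763.2 h library had 1234 CPM of Prm1, and barcodes with 2 or more Stra8 UMIs had 0, 23.6, 1863 and 1556 CPM. The level was thus shared by 3 germ cell classes of a library, while it was 0 in all of them at 144 h. Dmrtb1, a gene of the rule, was touched by the same pattern: 85.8% and 69.5% of barcodes rich in spermatid RNA (at least 3% of their UMIs) had a Dmrtb1 UMI at 556.8 and 763.2 h, at median depths of 5226 and 3015 UMIs. In Sertoli-rich barcodes the share was 2.78% at 144 h and 88.0% at 556.8 h. A Dmrtb1 UMI was therefore common in spermatid-rich barcodes of the last 2 libraries, and in Sertoli-rich ones at 556.8 h. Whether it came from background RNA, and whether it made the limit of 3 rule genes easier to meet there, was not tested. Kit was seen in 1.17% and Prss50 in 0.915% of the spermatid-rich barcodes at 763.2 h, and Prss50 in 3.09% at 556.8 h.

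The members were most frequent at 350.4 h. They made up 1.52%, 9.63%, 1.11% and 2.20% of the barcodes that passed, in time order, and the kept members 1.22% (0.974% to 1.52%), 9.08% (8.28% to 9.92%), 0.526% (0.386% to 0.702%) and 1.63% (1.41% to 1.88%). The 350.4 h library stood above the other 3 and their intervals did not overlap its own. For a comparison at equal depth, barcodes of at least 3000 UMIs were thinned to that number, which left out 1367, 1971, 1212 and 5576 shallower ones. The shares were then 2.29%, 9.80%, 1.26% and 1.64%, against 1.74%, 15.95%, 1.26% and 4.19% in the same barcodes before thinning. The 350.4 h library was highest each time, while 144 h lay below 763.2 h before thinning and above it after. These are shares of a suspension in which the other cell types also changed in number, and each library had its own lower limit of barcode content.

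The genes of the rule describe the members and support nothing, since they chose them. Kit stood at 103, 116, 123 and 137 CPM in the kept members in time order, a narrow range. Rhox13 stood at 181, 240.2, 172 and 209 CPM. Dmrtb1 had 209, 163, 192 and 202 CPM. These 3 genes varied little between libraries. Prss50 was lowest at 144 h, with 72.4 CPM against 199.9, 144.5 and 161 CPM later. Sohlh2 went the other way, with 48.3 CPM at 144 h against 19.0, 18.4 and 21.4 CPM, and so did Dnmt3b, with 95.8 CPM against 42.7, 52.3 and 47.2 CPM. The 144 h members thus stood higher in Sohlh2 and Dnmt3b and lower in Prss50 than those of each later library. These genes helped to choose the cells, and a barcode without Prss50 needed other genes of the rule instead. Nothing is therefore drawn from these differences. In single cells, Prss50 was seen in 52.4%, 86.8%, 63.0% and 70.1% of kept members, Sohlh2 in 45.1%, 28.2%, 21.7% and 19.8%, and Kit in 74.4%, 84.1%, 84.8% and 75.4%.

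**Figure D2:**
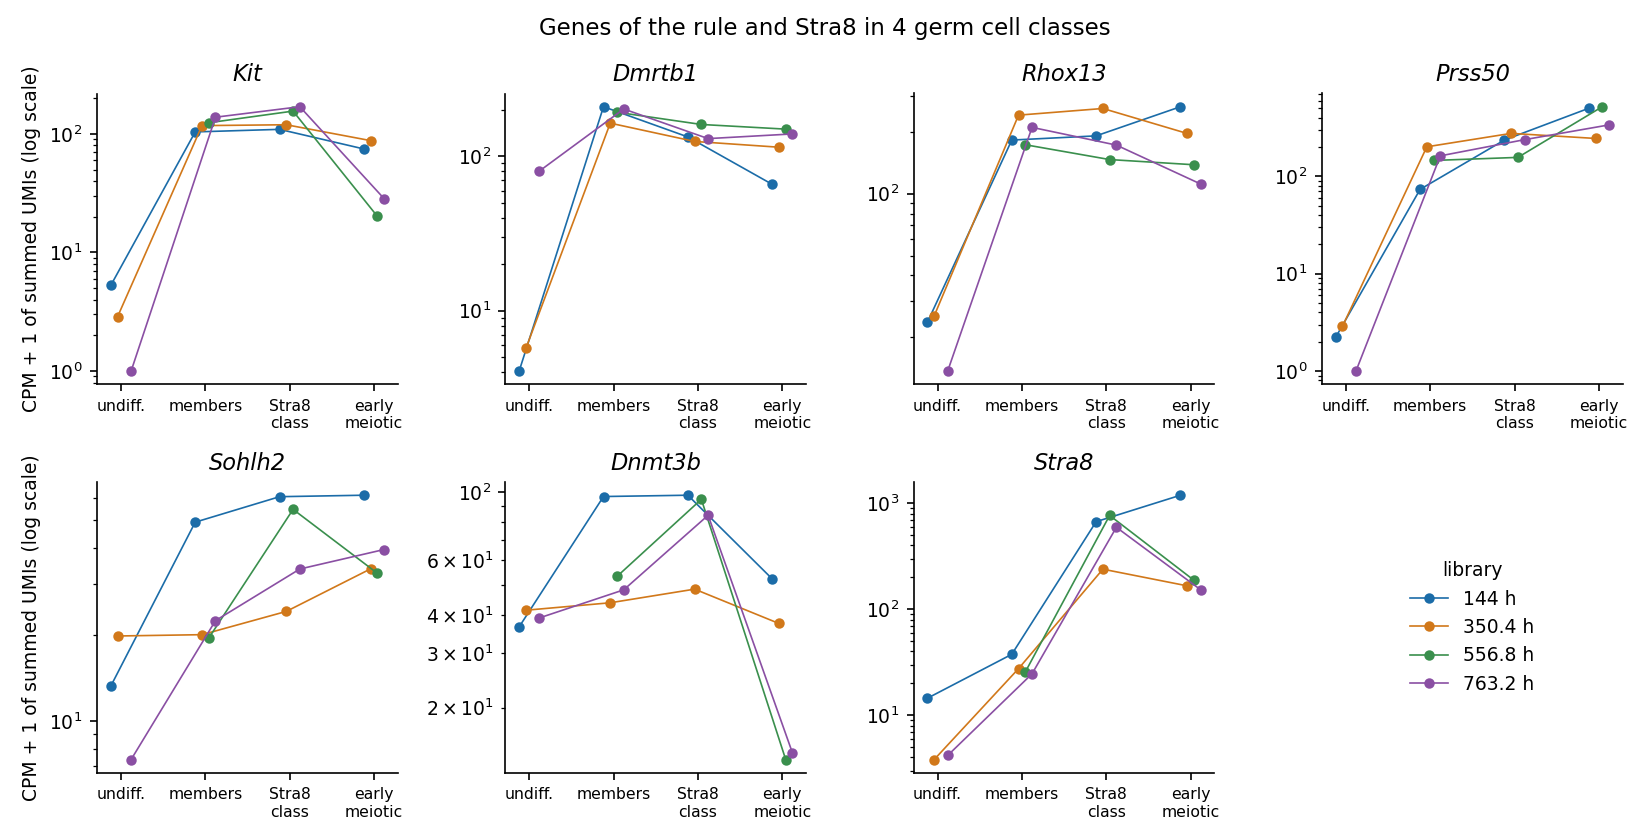
Levels of the 6 genes of the rule and of Stra8 as CPM plus 1 of summed UMIs (log scale) in 4 germ cell classes without barcodes rich in other cells' RNA (early meiotic means 2 or more UMIs of Meiob, Dmc1 and Rad51ap2), 1 line per library; the 4 undifferentiated barcodes at 556.8 h are not drawn. Kit goes from under 5 CPM in the undifferentiated class to 103 to 137 CPM in the members, and Stra8 from at most 36.6 CPM in the members to 238 CPM or more in the Stra8 class.

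Against undifferentiated spermatogonia of the same library, the kept members had less RNA of 5 stem and progenitor genes and of Ccnd2 and more of Ccne2, Hist1h2aa and Esx1, among others. The undifferentiated class met the same limits but had at least 3 of the 7 undifferentiated genes and under 3 of the 6 rule genes, and it gave 71, 39 and 22 kept barcodes at 144, 350.4 and 763.2 h. At 556.8 h only 4 were left, so that library was not compared. A gene was counted when the interval of its ratio lay wholly beyond 2-fold, in the same direction, in all 3 libraries. Of 8348 genes, 91 (1.09%) were higher and 146 (1.75%) lower in the kept members. These counts include genes that defined the classes: Kit, Rhox13 and Prss50 among the higher and all 7 undifferentiated genes among the lower. With all barcodes and 4 libraries, 106 of 8173 genes (1.3%) were counted in either direction, Kit, Rhox13, Prss50 and Gfra1 among them. The rule separated the classes, so these genes describe the step between them and nothing is drawn from the genes of the rule.

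The list of 20 stem and progenitor genes had 8 members measured in this comparison, of which 5 were lower in every library. The median was -4.97 on the log2 scale against 0.28 over all genes. Measured means at least 20 UMIs in both sums together. A gene with few UMIs in the kept members was therefore measured only where the undifferentiated class was high. This limit and the choice of that class partly set the count and the median, which are a description only. Nanos3, an RNA-binding protein of germ cell survival, had 3.11, 0.503 and 0.890 CPM in the kept members at 144, 350.4 and 763.2 h against 70.5, 67.6 and 88.8 CPM in the undifferentiated class. Sdc4, a cell surface proteoglycan, had 15.6, 5.03 and 3.56 CPM against 560.0, 603 and 482 CPM. Lhx1, Lin28a and Tcl1 were the others. Foxo1, a transcription factor of spermatogonial stem cells, was less far apart, at 70.1, 55.0 and 44.1 CPM against 129, 167 and 143 CPM. Etv5, the transcription factor downstream of GDNF, was at 4.67, 1.26 and 0.445 CPM against 55.1, 27.2 and 34.9 CPM.

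Ccnd2, which encodes cyclin D2 of G1, led the genes counted lower. It had 514, 251 and 225 CPM in the undifferentiated class and 10.1, 1.51 and 1.34 CPM in the kept members of the same libraries. The highest member value lay far below the lowest undifferentiated value, and the ratio was between 0.00593 and 0.0197. Ccnd1, which encodes cyclin D1, ran the other way, with 92.5, 47.9 and 92.0 CPM in the undifferentiated class and 336, 297.5 and 257 CPM in the members. Its interval lay beyond 2-fold at 144 and 350.4 h but not at 763.2 h, where the ratio was 2.79 (1.92 to 4.21). Ccne2, encoding cyclin E2 of the G1 to S transition, had 10.4, 8.45 and 6.35 CPM in the undifferentiated class and 95.8, 120.2 and 106 CPM in the members. The CDK inhibitor gene Cdkn1c was lower in all 3 libraries, at 14.8, 8.80 and 12.9 CPM against 116, 46.0 and 60.3 CPM. Of the 14 G1 cyclins and inhibitors measured, Ccnd2 and Cdkn1c were the 2 counted lower and 0 were counted higher.

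Few genes of DNA replication and division were counted. The 23 S phase genes had a median of 1.08 on the log2 scale with 2 counted higher, Ccne2 and Rrm2, which supplies deoxynucleotides. The 20 G2 and M phase genes had a median of 1.23 and 0 counted in all 3 libraries. Top2a, the topoisomerase of dividing cells, had 541, 859.6 and 837.5 CPM against 267, 121 and 139.6 CPM, and its interval reached below 2-fold only at 144 h, where the ratio was 2.03 (1.80 to 2.29). Among the 23 premeiotic and meiotic genes measured, with a median of 0.86, Prdm9 was the 1 counted. Prdm9, the histone methyltransferase that places recombination sites, had 21.0, 33.3 and 28.5 CPM against 2.45, 0.939 and 0 CPM. Synaptonemal complex RNA was already present in both classes: Sycp3 had 253, 290.5 and 292.5 CPM in the kept members and 159, 164 and 184 CPM in the undifferentiated class.

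Of the 12 higher genes named by rank, Hist1h2aa and Esx1 led, followed by Ccne2, H1fx, Rbp4, Arf2, H3f3b, Atp2a2, Selm, Ckap2l, Tbx1 and Hist1h1a. Hist1h2aa, a testis H2A gene, had 107, 428 and 539 CPM in the kept members against 6.13, 0.939 and 19.0 CPM, and the linker histone gene H1fx had 339, 357 and 384 CPM against 47.2, 31.9 and 57.1 CPM. H3f3b, one of the genes of the replacement histone H3.3, had 3625, 5069 and 4181 CPM against 1078, 1013 and 1228 CPM. The X-linked homeobox gene Esx1 had 226, 229.5 and 144 CPM against 16.5, 8.45 and 3.17 CPM, and the T-box gene Tbx1 had 81.8, 71.4 and 78.8 CPM against 3.06, 0.939 and 9.52 CPM. For these 5 genes the lowest member value lay above the highest undifferentiated value. Counts of histone genes with near-identical copies are uncertain, since reads may be shared between them.

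Of the 12 lower genes named by rank, Ccnd2 and Sdc4 led, followed by Tubb5, Dstn, Ndufb11, H2afy, Trim71, Foxp1, Snx6, Psmd7, Psmb10 and Rest. Tubb5, a beta tubulin, had 101, 28.8 and 35.6 CPM against 907, 564 and 492 CPM, and Dstn, the actin-severing protein destrin, had 56.1, 41.5 and 43.2 CPM against 521, 424 and 492 CPM. Rest, a transcriptional repressor, had 114, 87.4 and 101.5 CPM against 458, 315 and 352 CPM. H2afy, which encodes the histone variant macroH2A1, had 28.8, 43.0 and 36.1 CPM against 327, 273 and 228 CPM. Among the 12 sugar use genes measured, the glycolytic genes Pkm and Eno1 were counted lower, Pkm at 50.6, 30.8 and 41.0 CPM against 347, 195 and 155 CPM. The immediate early genes Fos and Egr1, which can be induced by tissue dissociation, were lower as well, Fos at 13.2, 36.2 and 5.34 CPM against 162, 153 and 92.0 CPM. Whether the 2 classes met the dissociation alike was not tested.

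**Figure D3:**
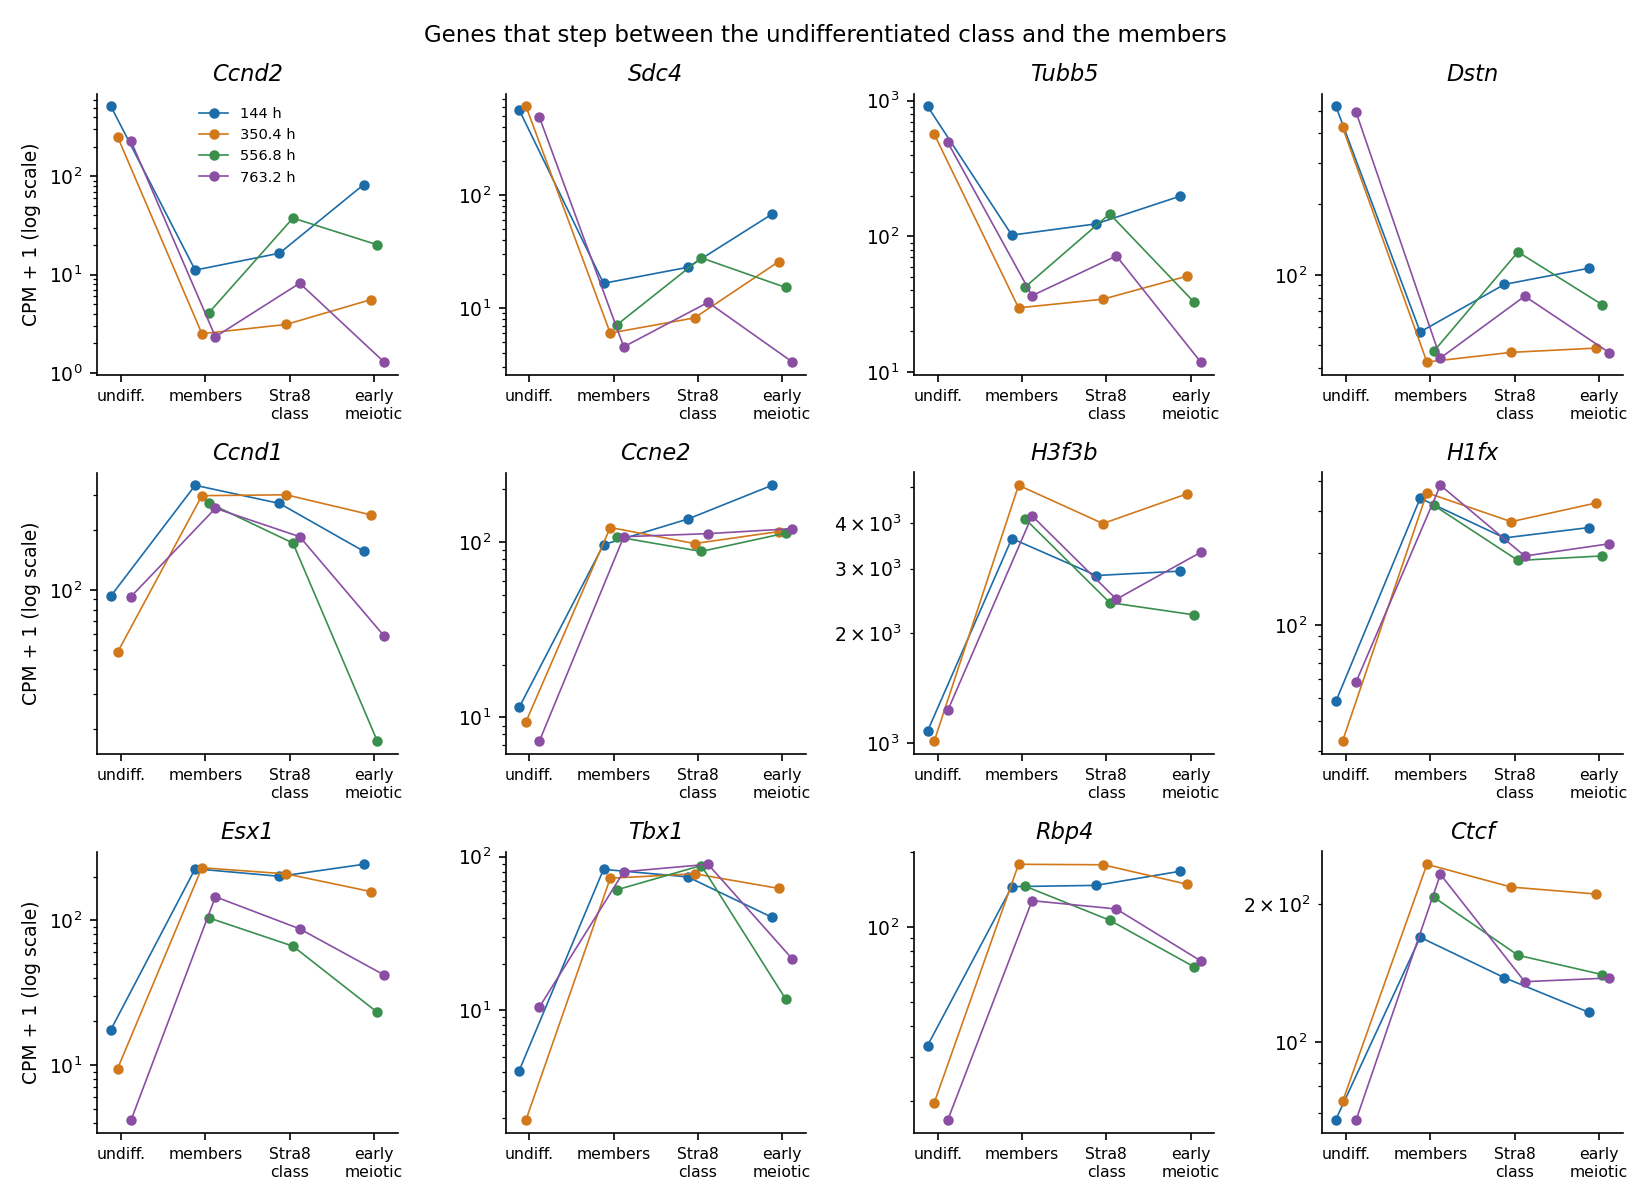
Levels of 12 genes as CPM plus 1 of summed UMIs (log scale) in the undifferentiated, member, Stra8 and early meiotic classes, 1 line per library, without the 4 undifferentiated barcodes of 556.8 h. Ccnd2 and Sdc4 are at 225 CPM or more in the undifferentiated class and at most 15.6 CPM in the members, Ccnd1, Ccne2, H1fx, Esx1 and Tbx1 are higher in the members, and Ccne2 and Tbx1 lie near the member level in the Stra8 class.

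By their label these cells precede the peak of Stra8. Against barcodes that met the same rule except for 2 or more Stra8 UMIs, few differences were found. This Stra8 class held 592, 502, 71 and 81 kept barcodes. Of 8076 genes, 0 (0%) were higher and 1 (0.0124%) lower in the kept members in all 4 libraries. The 1 was Stra8 itself, at 36.6, 26.5, 24.6 and 23.6 CPM against 670, 238, 768 and 593 CPM. Stra8 defined the 2 classes and was bound to differ, so nothing is drawn from it. With all barcodes it was again 1 of 9347 genes (0.0107%). This was a count of genes beyond 2-fold and does not show that the classes were equal. In single libraries some genes differed. At 763.2 h Mki67, a marker of cycling cells, had 674 CPM in the kept members and 330 CPM in the Stra8 class, but at 350.4 h it had 529.5 and 543 CPM. Rec8, the meiotic cohesin, had 2.34, 25.2, 9.22 and 30.7 CPM in the kept members against 30.6, 43.3, 26.8 and 44.1 CPM, lower in 4 of 4 libraries and by the most at 144 h. Sycp3 at 144 h had 253 CPM against 453 CPM. Prss50 had 72.4, 199.9, 144.5 and 161 CPM in the kept members against 235, 275, 155 and 237 CPM, with the values at 556.8 h close together. It is a gene of the rule that helped to choose both classes, so nothing is drawn from it.

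Splitting the kept members themselves by 0 or 1 Stra8 UMI also found few differences. At the low Stra8 levels of these barcodes, a call of 0 or 1 UMI rests largely on which molecules were captured. Nor was it made at equal depth, so the split could hardly find more and does not show that the sides were alike. Among barcodes of at least 5000 UMIs, 2 of 4001 genes (0.05%) were higher in barcodes with a Stra8 UMI, Arf2 and Malat1, and 3 (0.075%) were lower, Kcnq1ot1 and Gpx4 among them, with an interval beyond 1 in the 3 libraries with at least 20 barcodes on each side. The genes named here were chosen after their values were seen. A Stra8 UMI was present in 47, 211, 16 and 53 of the kept members, and no measure here places members with and without Stra8 in time.

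Between libraries, all members together differed widely, and the widest differences were in genes of other cells. From 144 to 350.4 h, 2251 of 12933 genes (17.4%) lay beyond 2-fold, and the highest were led by spermatid genes such as Smcp and Prm3 while Vcam1, Ctgf and Igfbp4, which mark somatic cells, were among the 10 lowest. In the kept members 215 of 11315 genes (1.9%) were higher and 246 (2.17%) lower at 350.4 h. The stromal and vessel list had 5 of its 5 measured genes lower and the spermatid list 6 of 8 higher even among these. Dcn, a stromal proteoglycan, had 71.6 CPM at 144 h and 0.251 CPM at 350.4 h. The kept members of the 2 libraries therefore differed in the RNA of other cells that they carried. At 144 h the stromal and vessel list summed to 167 CPM in the kept members. It summed to 44.7 CPM in the undifferentiated class and 77.9 CPM in the Stra8 class, also without the rich barcodes. Whether this RNA lay in few barcodes was not tested, and neither was its part in the other genes.

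Mki67 and histone genes were higher at 350.4 h than at 144 h. Mki67 stood at 219, 529.5, 370 and 674 CPM in time order, lowest at 144 h, with a ratio of 2.42 (2.14 to 2.74) between the first 2 libraries. Hist1h2ap had 114, 609.6, 844 and 353 CPM and Hist1h1a 200.1, 537, 472 and 539.6 CPM. All 3 were lowest at 144 h, and they did not move together afterwards. As lists the cycle genes stayed near the median of all genes: of 20 G2 and M phase genes only Mki67 was counted, with a median of 0.13 against 0.05 over all genes, and 0 of 23 S phase genes, with a median of -0.17. In single kept members thinned to 5000 UMIs, the median G2 and M phase sum was 18, 22, 20 and 23 UMIs and the S phase sum 20, 19, 16 and 15 UMIs. Mki67 was seen in 54.9%, 80.7%, 67.4% and 80.0% of these cells.

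Of the genes of differentiation and meiosis, few were counted between 144 and 350.4 h. Crabp1, a cytosolic retinoic acid binding protein, had 556, 242, 315 and 216 CPM in time order, highest at 144 h, and the ratio of 350.4 to 144 h was 0.436 (0.40 to 0.476). It was among the 2 of 12 retinoid genes that were lower. Rec8 was the 1 of 28 premeiotic and meiotic genes that was higher, from 2.34 to 25.2 CPM, a ratio of 10.8 (3.63 to 52.7) that rests on a low count at 144 h. The median of that list was 0.47 against 0.05. Sycp2, an axial element protein, stood at 57.6 and 142 CPM, a ratio of 2.47 (1.95 to 3.17) that just missed the limit. Among 13 differentiation regulators Id2, an inhibitor of helix-loop-helix factors, was lower at 26.5 and 7.80 CPM, while Dmrt1, a transcription factor that restrains Stra8, stood at 283, 217, 160 and 182 CPM. In the DNA methylation list 0 of 7, among Kit signalling genes 0 of 17, and in the ribosome building list 0 of 15 were counted.

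Other genes that met the rule for naming were of mixed kinds. Wdr89 had 833, 237, 260 and 186 CPM and Usp50 251, 59.5, 50.7 and 50.3 CPM. Both were high at 144 h and lay close together in the 3 later libraries. AY036118 went the other way with 53.7, 378, 275 and 338 CPM, as did Lars2, the mitochondrial leucyl-tRNA synthetase, with 53.7, 152, 93.8 and 201 CPM. The shift was not limited to the members: in the Stra8 class Wdr89 had 802 and 223 CPM, AY036118 41.6 and 356 CPM, Crabp1 539.9 and 242 CPM and Mki67 181 and 543 CPM at 144 and 350.4 h. In the undifferentiated class Wdr89 had 743 and 315 CPM and AY036118 27.6 and 258 CPM. Cldn5 and Phkg1 also met the rule, with 100% and 87.2% of their 144 h UMIs in 1 barcode each.

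**Figure D4:**
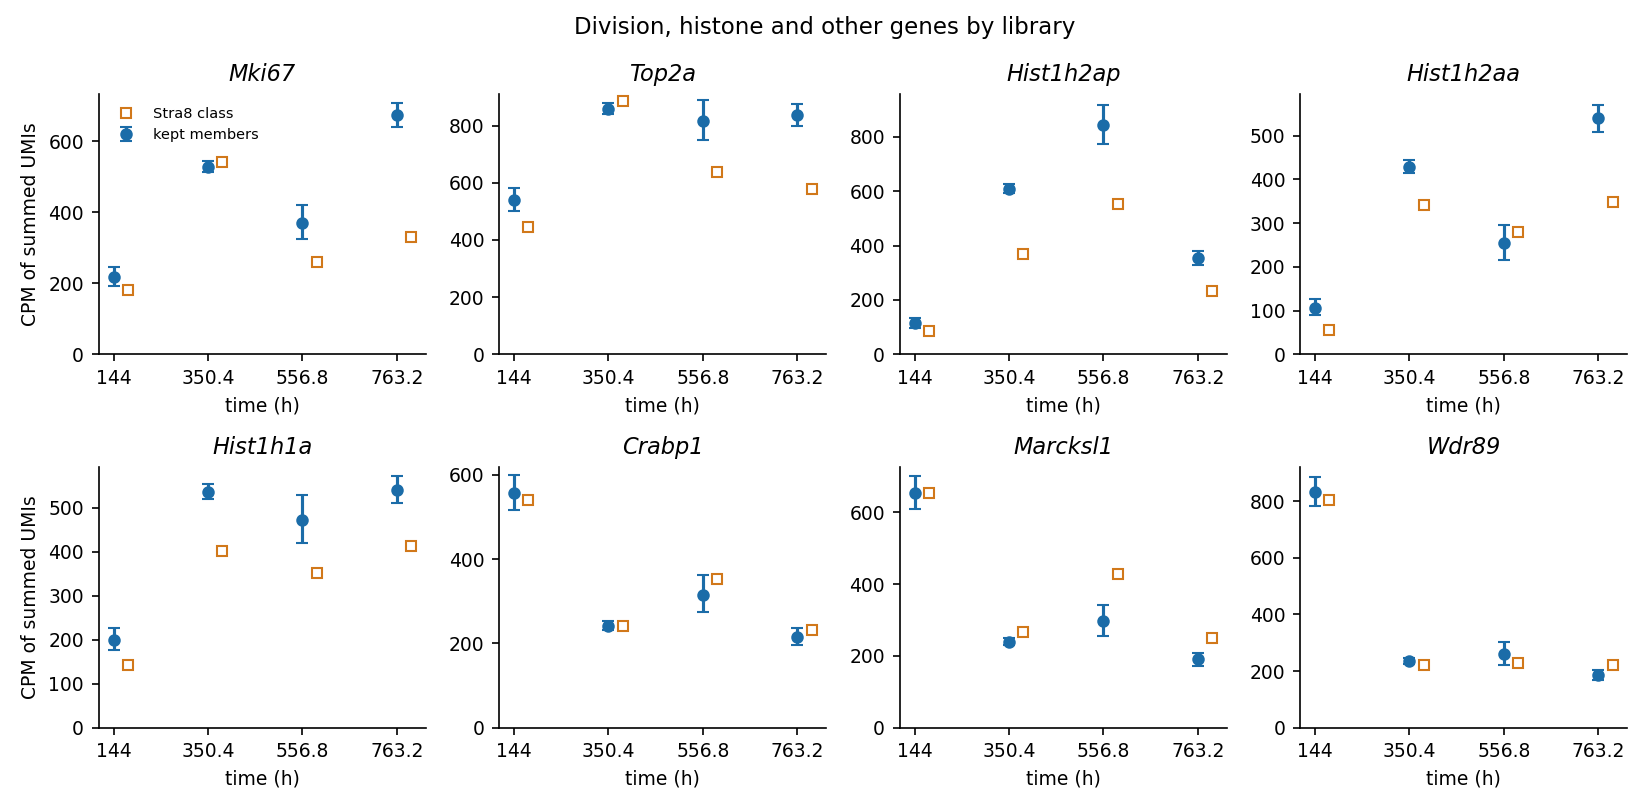
CPM of 8 genes in the kept members of each library (filled circles, bars are 95% Poisson intervals of the count) and in the Stra8 class (open squares), against time in h. Mki67, Top2a and the 3 histone genes are lowest at 144 h, Crabp1, Marcksl1 and Wdr89 are highest there, and the Stra8 class shows the same contrast between 144 h and 350.4 h.

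From 350.4 to 556.8 h, 2429 of 13010 genes (18.7%) lay beyond 2-fold in all members. In the kept members 637 of 11210 (5.68%) were higher and 4 (0.0357%) lower. Spermatid genes led, with 6 of 8 higher and a median of 4.54 on the log2 scale, and pachytene genes followed, with 6 of 8 and a median of 3.02, against -0.03 over all genes. Of the germ cell lists, 1 of 28 premeiotic genes was higher, Spo11, 3 of 20 germline RNA genes, Tdrd6, Gtsf1 and Ddx25, and 3 of 15 sugar use genes, Slc2a3, Pfkp and Ldha. Slc2a3, a glucose transporter, had 21.3 and 106 CPM in the kept members and 16.5 and 95.6 CPM in the Stra8 class. Of 23 S phase and 20 G2 and M phase genes 0 were counted. No gene that was higher met the rule for naming, which asks for a level at least that of the whole library, and RP23-4H17.3 was the only lower gene that did.

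From 556.8 to 763.2 h, 567 of 11857 genes (4.78%) lay beyond 2-fold in all members, and in the kept members 57 of 9819 (0.581%) were higher and 5 (0.0509%) lower. Only 46 kept members carried the 556.8 h values. Hist1h2ap was lower, at 353 against 844 CPM, a ratio of 0.418 (0.374 to 0.467). C77370 was higher, at 69.5 against 16.9 CPM. Ptcra had 63.2 CPM against 0 of 650618 UMIs, but 22.5% of its UMIs lay in 1 barcode. Of the premeiotic, S phase and G2 and M phase lists 0 genes were counted.

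The kept members were also compared among themselves by Prss50, a choice made after its values were seen. Barcodes of at least 5000 UMIs were thinned to that number to call Prss50 at equal depth, and 237 then had and 188 lacked a Prss50 UMI at 350.4 h and 95 and 90 at 763.2 h. Since 86.8% and 70.1% of kept members had Prss50 before thinning, many of those called without it carried some, so barcodes with more are compared with barcodes with less. The levels below are from all UMIs of each group. The other 2 libraries had fewer than 20 on a side. Of 5916 genes, 317 (5.36%) were higher and 213 (3.6%) lower in the barcodes with Prss50, with an interval beyond 1 in both libraries. Prss50 helped to choose the members, so a cell without it needed more of the other 5 genes of the rule; those 5 are not compared here, and the rest describes the spread among members.

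The gene with the widest margin was Ctcfl, which encodes CTCFL (BORIS), the germ cell paralogue of the insulator protein CTCF. It had 49.3 CPM with and 21.8 CPM without a Prss50 UMI at 350.4 h, a ratio of 2.26 (1.74 to 2.96), and 60.1 and 16.7 CPM at 763.2 h, a ratio of 3.60 (2.13 to 6.35). Ly6k and Tex101, which form a pair of membrane proteins of germ cells, followed. Ly6k had 124 and 64.7 CPM, then 123 and 48.3 CPM, and Tex101 had 576 and 339.5 CPM, then 432 and 206 CPM. Dpep3, a membrane dipeptidase of germ cells, had 148 and 78.3 CPM, then 147 and 76.4 CPM. Barcodes called with Prss50 were thus richer in RNA of these 3 membrane proteins in both libraries.

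Rec8 had 33.3 and 15.8 CPM at 350.4 h and 41.0 and 20.2 CPM at 763.2 h, ratios of 2.10 (1.54 to 2.91) and 2.03 (1.20 to 3.51). Lower in cells with Prss50 was Crabp1, at 199 and 291 CPM, then 141 and 289.8 CPM. The replication licensing gene Cdc6 had 36.4 and 60.3 CPM, then 17.3 and 66.7 CPM. Top2a was slightly higher with Prss50, at 948 and 762 CPM, then 959 and 726 CPM. Loxl2 led the lower genes, but 26% to 59% of its UMIs lay in 1 barcode of a library.

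**Figure D5:**
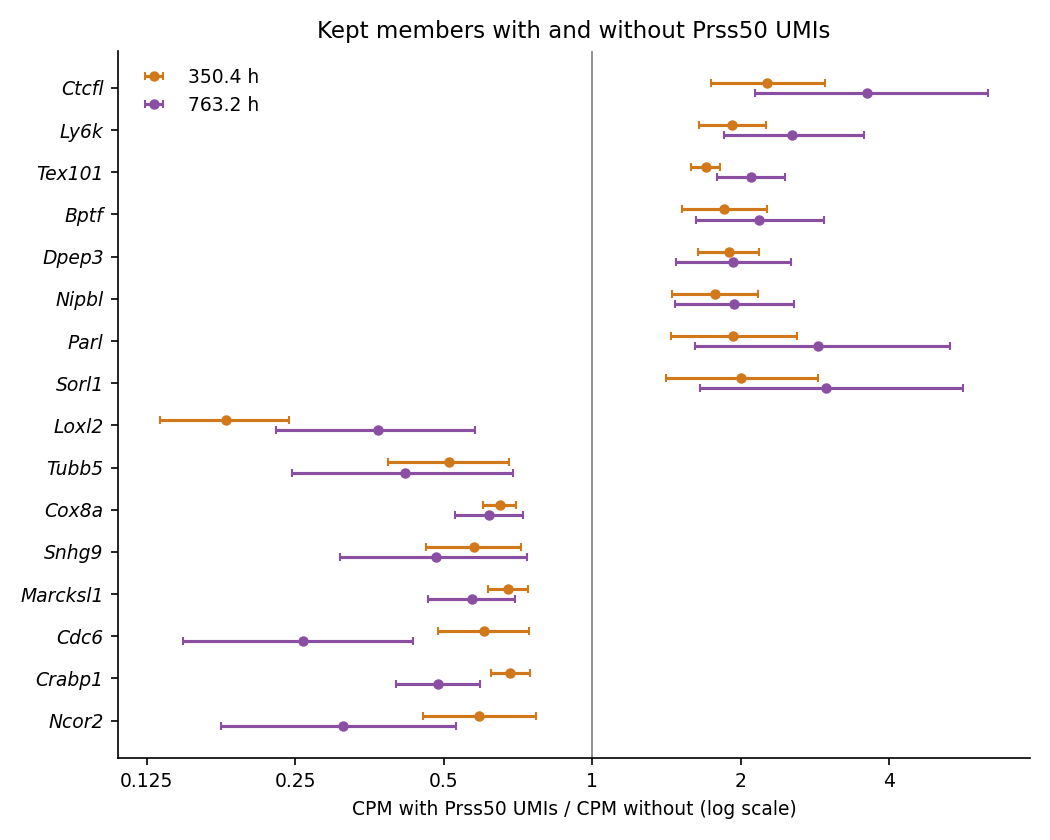
Ratio of CPM in kept members with a Prss50 UMI to CPM in those without (log scale), with Prss50 called after thinning each barcode to 5000 UMIs, at 350.4 and 763.2 h, with 95% intervals from counting. The 8 highest and 8 lowest genes by the bound nearest 1 are drawn: Ctcfl, Ly6k, Tex101 and Dpep3 lie to the right of 1 in both libraries, and Loxl2, Tubb5, Cdc6 and Crabp1 to the left.

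CTCFL, the protein of the leading gene, can bind GC-rich sites that CTCF also binds. For this reason the sequences before the starts of 3 genes of the rule are shown. They are from RefSeq (GRCm38.p6), plus strand, the 250 bases before the annotated start: Prss50 at chr9:110857714-110857963, Dnmt3b at chr2:153649199-153649448 and Kit at chr5:75574737-75574986. All 6 genes of the rule had an entry. Capitals mark AGGGGGC on either strand, a core of the CTCF site. It occurs in the windows of Prss50, Sohlh2 and Dnmt3b, 3 of 6 genes, and in 3098 of all 32851 windows (9.4%). All windows were used without matching for GC content, and 6 genes are few, so nothing is drawn from this difference. The window of Tex101, which was higher with Prss50, had 0 matches. CANNTG, the E-box read on both strands, occurs in 4 of 6 against 66.2% of all windows. A match is a description of the letters, and binding was not measured.
Prss50: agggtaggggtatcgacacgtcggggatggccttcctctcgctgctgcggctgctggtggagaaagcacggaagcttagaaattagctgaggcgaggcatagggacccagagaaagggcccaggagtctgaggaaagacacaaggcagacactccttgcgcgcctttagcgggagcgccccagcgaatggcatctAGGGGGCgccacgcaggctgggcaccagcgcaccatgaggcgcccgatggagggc
Dnmt3b: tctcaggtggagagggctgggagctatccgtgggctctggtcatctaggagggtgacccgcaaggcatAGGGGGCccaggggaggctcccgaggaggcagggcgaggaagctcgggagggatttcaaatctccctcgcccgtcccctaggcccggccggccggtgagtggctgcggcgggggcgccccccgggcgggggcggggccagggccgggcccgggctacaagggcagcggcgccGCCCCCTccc
Kit: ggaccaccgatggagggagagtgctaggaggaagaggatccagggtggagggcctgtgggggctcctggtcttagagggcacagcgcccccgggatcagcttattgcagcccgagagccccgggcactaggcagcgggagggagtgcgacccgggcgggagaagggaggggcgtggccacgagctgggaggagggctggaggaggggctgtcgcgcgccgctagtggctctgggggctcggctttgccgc
In Prss50 the capitals lie 55 bases before the start and in Dnmt3b 10 and 182 bases before it, while the Kit window has none.

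Values just inside and outside the limits of the rule show how it bounded the cells. Barcodes rich in other cells' RNA are included in these values. At 144 h the 46 barcodes with exactly 3 of the 6 rule genes had 229 CPM of Crabp1 and 54.6 CPM of Mki67, and the 166 with 2 had 25.9 and 6.77 CPM. At 350.4 h the 215 barcodes with 1 Stra8 UMI had 208 CPM of Dmrt1 and 524 CPM of Mki67, and the 167 with 2 had 213 and 614 CPM. At that time the 109 barcodes with 3 rule genes had 94.4 CPM of Crabp1 and 176 CPM of Mki67, and the 237 with 2, which were shallower, had 38.9 and 59.5 CPM. The pachytene gene Ldhc stood at 3619 CPM with 3 rule genes and 5662 CPM with 2. Both sides thus held much spermatocyte RNA. Across the Stra8 limit Ldhc had 349 CPM inside and 141 CPM outside. In the kept members 27, 83, 19 and 65 had 3 of the 6 genes in time order, and 9, 42, 1 and 4 had all 6.

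The genes whose levels followed Kit most closely over 21 sums of class and library, among 3777 genes, were Atp13a3, with a Spearman rho of 0.95, Rexo1 and Mob1a with 0.94, and Ctdspl2 and Kif1b with 0.93. The sums share libraries and depth, so this is a description of likeness only.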

How the data were processed

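Raw UMI counts per gene and barcode (27998 features) were used as deposited by the authors, written by software version 3.0.2 per the file headers. Per the submitters' processing notes, Seurat 4.3.0.1 and the mm10 build were involved, with no role stated, and how reads were aligned and barcodes called is not given. The members, the 28 gene lists and the limits were chosen with earlier results of these data known.

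Barcodes were classed by the rule in Python 3.11.15, and UMIs were summed per class and library and scaled to CPM. Ratios have exact 95% conditional binomial intervals and shares Clopper-Pearson intervals. A gene was counted with at least 20 UMIs in both sums together and an interval wholly beyond 2-fold, and a class was compared with at least 20 barcodes. In list medians 3 counts stood in place of 0. The ratio intervals were tested on simulated sums that held counting error only, without variation between barcodes. The thinning step was checked on a small made example. Doublets were scored, and not removed, with Scrublet in scanpy 1.11.5. Named genes were up to 10 per direction between times and 12 between classes, ranked by the interval bound nearest 1, with at least 50 UMIs and 50 CPM. Those of the kept members follow the same rule. The limits on other cells' RNA and the splits by Prss50 and Stra8 were chosen after seeing the data. List examples with values were picked after their values were seen. Some genes that met these rules are not reported here.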

Additional observations from a re-analysis of the deposited data

How the results depend on the processing

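The cells were chosen anew under each other setting. In time order the share of members was 0.671%, 5.20%, 0.835% and 1.66% with Stra8 at 0 UMIs, 0.836%, 7.38%, 0.435% and 1.24% with at least 4 of the 6 genes, and 1.22%, 9.08%, 0.526% and 1.63% without barcodes rich in other cells' RNA. With at least 5000 UMIs it was 17.7%, 1.65% and 6.69% at the last 3 times, with thinning 2.29% at 144 h and 1.64% at 763.2 h, and with under 10% mitochondrial UMIs 8.54% at 350.4 h. The 350.4 h library was highest in all of these. The count of genes for 350.4 against 144 h was 388 with at least 4 genes and 461 without the rich barcodes, against 2251. For 556.8 against 350.4 h it was 1260 and 641 against 2429, and for 763.2 against 556.8 h 122 and 62 against 567. Against the undifferentiated class it was 237 without the rich barcodes, against 106; this comparison also dropped the 556.8 h library. Between 763.2 and 556.8 h some genes named in all members turned direction, mostly Sertoli genes, on the log2 scale: Aard to 1.31 with at least 4 genes and 0.21 without the rich barcodes, Clu to 0.61 with under 10% mitochondrial UMIs, 2.80 and 2.21, Cst12 to 0.68 and 1.10, Cst9 to 0.63 and 0.91, Defb19 to 0.33 with at least 4 genes, and Elfn2 and RP24-136L4.4 to 0.21 each without the rich barcodes. The cause was not tested. No paired analysis was possible because each time had 1 library. With 46 kept members at 556.8 h, genes under about 20 UMIs in both sums could not be read.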

Other observations

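Other gene groups of the kept members are given here by their level at 144, 350.4 and 763.2 h beside the undifferentiated class of the same library. Of 10 genes of the bridges that join dividing germ cells 0 were counted, with a median of 1.10 on the log2 scale against 0.28 over all genes. Prc1, which bundles microtubules at the midzone, had 200.1, 269 and 351 CPM against 100.5, 54.5 and 76.1 CPM, while Tex14, which keeps the bridges open, had 121.5, 134 and 127 CPM against 118, 118 and 92.0 CPM. Of 12 X- and Y-linked germ cell genes 0 were counted, with a median of 0.23. Among them the X-linked meiosis gene Tex11 had 174, 282 and 222 CPM against 80.3, 59.2 and 44.4 CPM.

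Of 19 genes of germline small RNA pathways, with a median of -0.58, 1 was counted lower, the tudor protein gene Tdrd5, at 14.8, 20.1 and 13.4 CPM against 58.2, 86.4 and 63.5 CPM. Gtsf1, a partner of PIWI proteins, had 31.9, 51.4 and 146 CPM against 244.5, 178 and 311 CPM, though its level at 763.2 h moved with the RNA of later germ cells in that library and their part was not tested. Ddx4, the germ cell helicase, had 242, 242 and 247.5 CPM against 271, 279.8 and 241 CPM. Of 6 adhesion genes 0 were counted, with a median of 0.68. Among them Epcam had 212, 352 and 408 CPM against 147, 95.8 and 53.9 CPM and Cdh2, encoding N-cadherin, 25.7, 53.2 and 57.4 CPM against 11.6, 7.51 and 6.35 CPM. In the ribosome building list 0 of 15 and in the cell death and DNA damage list 0 of 14 genes were counted.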
